A study of Sus scrofa with 36 samples.

Results

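The genes described here were listed as transcriptional targets of p53, apart from the cell division genes that also belong to the p53 pathway. They are MDM2, CDKN1A, GADD45A, GADD45B, BAX, BBC3, SESN1, CCNG1 and ZMAT3. They were chosen as a named list of 9 genes, and their probes were found by the gene symbol that the scanner output gives for each spot. Of the 9 genes, 7 had at least 1 probe. BBC3 and ZMAT3 had none under this rule, and looking up the accessions of the spots in the RefSeq gene table found 5 of the same probes and 0 new ones. The 7 genes were measured by 15 probes, and 14 of these passed the filter on dim spots, among 46222 probes tested on the array and 9269 named genes with a tested probe. The probe left out was a CDKN1A probe that stood well above background on 1 of 36 arrays.

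Gene expression was measured on 36 Agilent porcine arrays, each hybridised with Cy3-labelled cRNA from the thyroid gland of 1 castrated male growing pig. The pigs were Creole (CR), Large White (LW) or a cross of both breeds called F1, with 6 pigs of each breed labelled 24 °C and 6 labelled 30 °C, which makes 6 groups. The pigs at 24 °C were slaughtered before a heat exposure of 5 days and those labelled 30 °C after it, and the growth protocol gives this exposure as 32 °C. The temperature is therefore tied to the time of slaughter, and an effect of one cannot be told apart from the other. Pen, slaughter day, sire and dam are part of the study's design but are not in the labels, so they were not fitted. The share of probes well above background was 72.8% on the dimmest and 80.3% on the brightest array, and any pair of arrays correlated at r between 0.983 and 0.995. Thyroglobulin (TG), the precursor protein of thyroid hormone, had the mean log2 intensity 18.80 at 24 °C and 18.79 at 30 °C, and 7 of 12 follicular cell markers had a tested probe. A breed position was computed for each pig from the 500 probes that separate CR (at -1) from LW (at 1) best when that pig is left out, and CR pigs lay between -1.07 and -0.47, F1 pigs between -0.45 and 0.34 and LW pigs between 0.59 and 1.13. The CR pig and the F1 pig nearest to each other on this scale were replicate 3 of CR 30 °C and replicate 6 of F1 30 °C.

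The transcription factor p53 is kept at a low level by MDM2, an E3 ubiquitin ligase, and it accumulates when DNA damage or another stress blocks that turnover. It then raises transcription of MDM2 itself, which closes a feedback loop, of the cell cycle brake CDKN1A (p21), of genes of DNA repair and antioxidant defence such as the GADD45 and sestrin families, and of death genes such as BAX and BBC3. Several of these genes also answer to other inputs: GADD45B to NF-kB and TGF-beta, GADD45A to BRCA1 and ATF4, and CDKN1A to many growth and hormone signals.

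Where a probe lies on its transcript matters for genes that are read by several probes, so the sequences behind the probes of BAX, CDKN1A and GADD45B are shown, as the scanner output gives them. Both BAX coding probes have the same 60 bases and so read 1 site, whereas the brighter main probe of BAX shares no stretch with them and holds the letters AATAAA, the common form of the polyadenylation signal. Capitals mark the stretch that encodes the core of the BH3 motif, the part of BAX by which the protein pairs with other members of the BCL2 family, in the coding probe, the letters AATAAA in the main probes of BAX and CDKN1A, and the start codon in the GADD45B probe. Only 30 bases are printed of the probes that reach outside the coding part.
BAX coding probe: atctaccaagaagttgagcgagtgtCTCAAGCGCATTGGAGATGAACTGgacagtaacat
BAX main probe: gagtggtctcggaggacAATAAAcctctct
CDKN1A main probe: ctgcaggtgctcAATAAAtatttctggtga
GADD45B start probe: ttataactgcaacATGacactggaagagct

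The letters AATAAA were in 3 of the 15 probes of these genes and in 10.3% of all probes on the array. The second CDKN1A probe shares 58 bases with the main probe, shifted by 2 bases and with 1 mismatch, and the 2 GADD45A probes share 57 bases. These pairs are repeat readings of nearly the same site, and not independent support for each other. After group means were removed, the 36 pigs gave r = 0.92 between the first 2 CDKN1A probes, 0.96 between the GADD45A probes, 0.94 between the identical BAX probes, 0.90 and 0.88 between each of them and the BAX main probe, 0.85 between the GADD45B probes and 0.72 between the CCNG1 probes. The remaining tested CDKN1A probe was dim, with a mean log2 intensity of 5.84, and followed the others at r = 0.12 and 0.18. Below, the brightest tested probe stands for each gene (its main probe), all values are log2 of the quantile-normalized median intensity, and levels are compared between pigs for the same probe and never between probes.

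**Figure D1:**
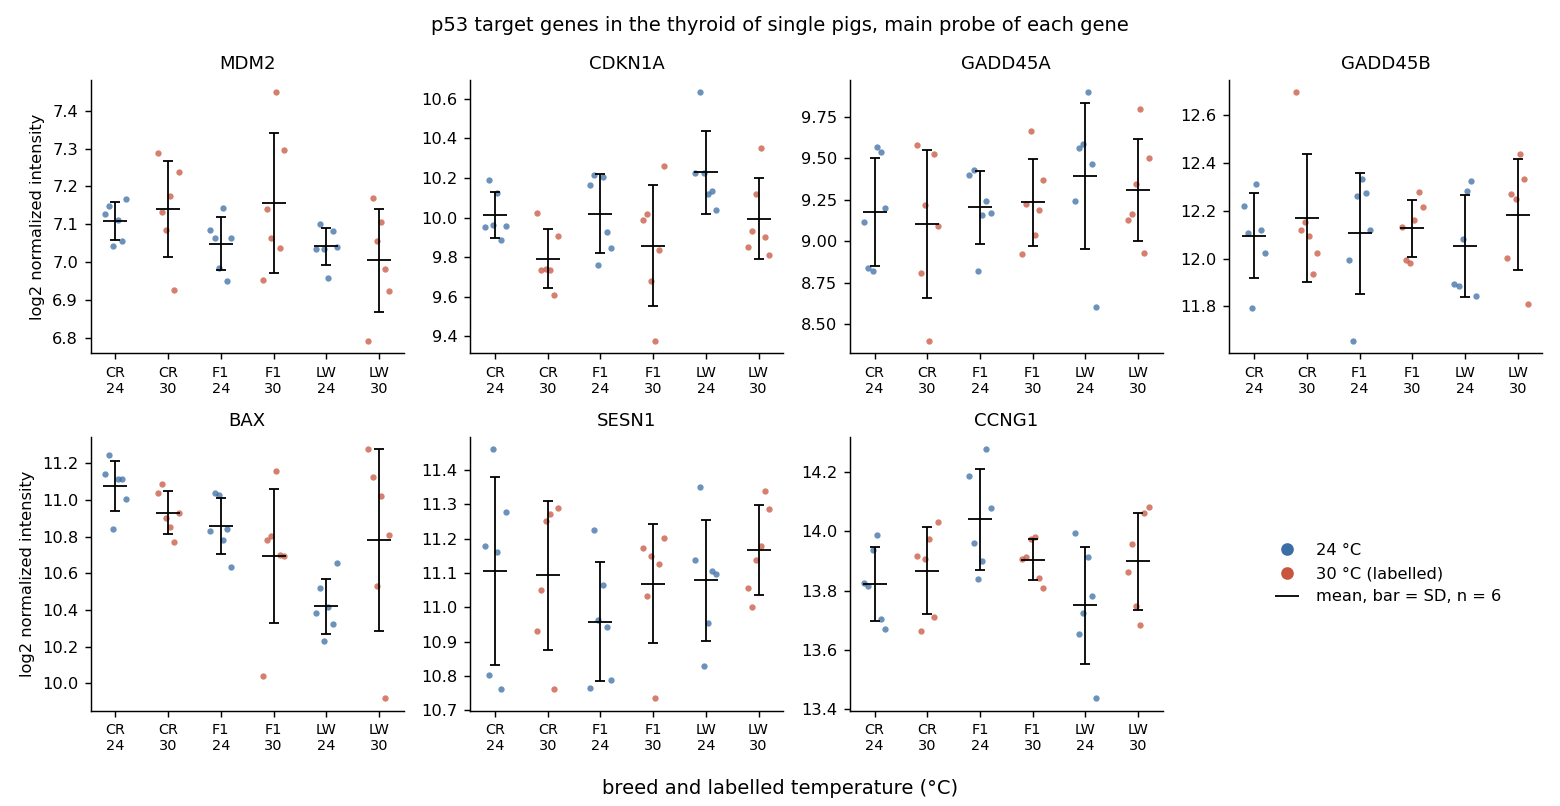
Log2 normalized intensity of the main probe of 7 p53 target genes in each of 36 pigs, by breed and labelled temperature (black marks are means, bars are SD, n = 6 pigs a group). BAX in LW at 24 °C lies between 10.23 and 10.65, under all 6 CR pigs at 24 °C, and in all 7 panels the pigs at 24 and 30 °C of each breed overlap.

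The first question was whether the exposure to heat changed these genes over the 3 breeds. None of the 7 genes passed the test on its main probe, and neither did any of the 14 probes (limma, Benjamini-Hochberg adjusted p between 0.16 and 0.99 for the main probes). Of all tested probes 1.18% were called, and at that share a count of 0 does not set so few genes apart. At an unadjusted p under 0.05 there was 1 gene, CDKN1A, and 2 probes, both of CDKN1A, beside 9.74% of all tested probes. The 7 changes ran from -0.21 to 0.08, with a median of 0.02, against a median of 0.01 over all tested probes, and 5 of the 7 were above 0.

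CDKN1A, which binds and blocks cyclin-dependent kinases, had the largest change of the 7. In CR at 24 °C its log2 intensity was 9.89 at the lowest, 9.96 at the median and 10.19 at the highest, and in CR at 30 °C it was 9.61, 9.74 and 10.03. The F1 pigs had 9.76, 10.05 and 10.21 at 24 °C and 9.38, 9.91 and 10.26 at 30 °C. The LW pigs had 10.04, 10.18 and 10.63 at 24 °C and 9.81, 9.92 and 10.35 at 30 °C. The groups overlapped in every breed, but 15 of the 18 pigs at 30 °C lay below the median of their own breed at 24 °C, 5 in each breed. The change over the breeds was -0.21 (SE 0.07, 95% confidence interval -0.34 to -0.07, 0.867-fold) and did not pass the test (limma, adjusted p = 0.16). The overlapping second probe gave -0.23 (SE 0.06, adjusted p = 0.059 with limma), and the dim probe gave -0.05 (SE 0.04, adjusted p = 0.78). Within a breed the change was -0.22 in CR, -0.16 in F1 and -0.24 in LW, each with an SE of 0.12, and the adjusted p from limma was 0.66 or higher in all 3. Leaving out 1 pig moved the value in F1 to -0.06 (without replicate 4 of F1 30 °C) and that in LW to -0.16 (without replicate 2 of LW 24 °C). Slides held 8 arrays except for the last with 4, and the difference between the temperatures was taken within each after breed means were removed. It was between -0.42 and -0.17 on the 4 full slides and 0.19 on the last, which held no breed at both temperatures. The value on the last slide therefore depends on the breed means.

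MDM2, the negative regulator of p53, was at 7.07 ± 0.06 (SD, n = 18) at 24 °C and 7.10 ± 0.16 (SD, n = 18) at 30 °C. Its change was 0.03 (SE 0.04, adjusted p = 0.88 with limma), with an interval from -0.05 to 0.12. The pigs at 24 °C kept within 6.95 and 7.17, whereas those at 30 °C reached from 6.79 to 7.45, and this difference in spread was not tested.

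GADD45A and GADD45B encode small acidic proteins that bind stress kinases and replication factors. GADD45A had 8.60, 9.24 and 9.90 as the lowest, median and highest value of the 18 pigs at 24 °C, and 8.40, 9.20 and 9.80 at 30 °C. The change of -0.04 (SE 0.11, adjusted p = 0.96 with limma) had the interval -0.26 to 0.18, the widest of the 7. GADD45B was at 11.66, 12.11 and 12.33 at 24 °C and at 11.81, 12.14 and 12.69 at 30 °C. Its change was 0.08 (SE 0.07, adjusted p = 0.82 with limma) on the main probe and 0.01 (SE 0.08, adjusted p = 0.99) on the probe over the start codon.

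SESN1, a stress-responsive inhibitor of mTORC1 signalling, had 10.76, 11.08 and 11.46 at 24 °C and 10.73, 11.14 and 11.34 at 30 °C. Its change was 0.06 (SE 0.06, adjusted p = 0.85 with limma). CCNG1, a cyclin that recruits protein phosphatase 2A to MDM2, had 13.44, 13.87 and 14.28 at 24 °C and 13.66, 13.91 and 14.08 at 30 °C. Its change was 0.02 (SE 0.05, adjusted p = 0.96 with limma), and the second probe gave 0.04 (SE 0.06, adjusted p = 0.94). For MDM2, SESN1 and CCNG1 the 95% intervals lay within -0.09 and 0.19, so that a decrease of the size seen for CDKN1A lay outside them.

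**Figure D2:**
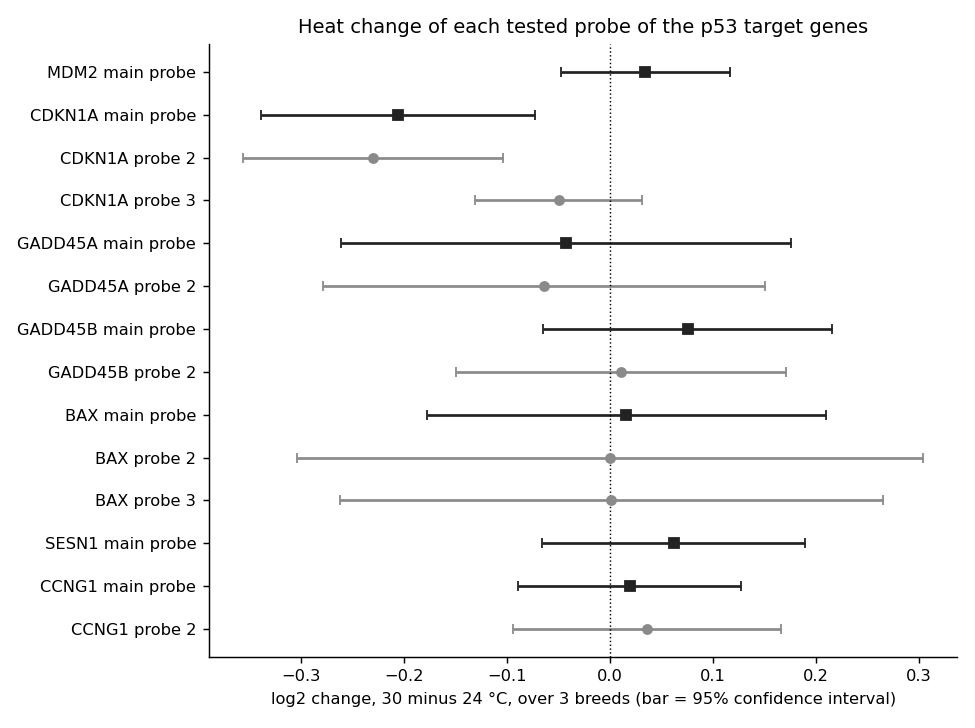
Log2 change from 24 to 30 °C over the 3 breeds for each of the 14 tested probes, with 95% confidence intervals from limma (squares are main probes, circles other probes). The intervals of 2 CDKN1A probes, at -0.21 and -0.23, lie below 0, the other 12 span it, and no adjusted p is under 0.05.

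Within single breeds, 0 of the 7 genes was called in CR, F1 or LW, where 0.387%, 0.383% and 0% of all tested probes were called. The count at an unadjusted p under 0.05 was 0, 0 and 1 gene, which is BAX in LW, beside 5.75%, 10.6% and 4.01% of all tested probes. The heat change in CR, F1 and LW, in this order, was 0.03, 0.11 and -0.04 for MDM2, for GADD45A -0.08, 0.03 and -0.08, and for GADD45B 0.07, 0.02 and 0.13. Each of these is smaller than the SD of at least 1 group of its breed. For SESN1 the values were -0.01, 0.11 and 0.09. The means of CCNG1 at 24 °C were 13.82, 14.04 and 13.75, and at 30 °C they were 13.87, 13.90 and 13.90, which gave 0.04, -0.14 and 0.15. The breeds lay closer together for CCNG1 at 30 than at 24 °C, and its test of a difference between the breeds gave an unadjusted p of 0.085. The test for a difference of the heat change between the breeds called 0 of the 7 genes and 0% of all probes, with 1 gene at an unadjusted p under 0.05 (BAX again) and 4.67% of all probes.

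BAX, the effector that permeabilises the outer mitochondrial membrane in apoptosis, was lower in LW than in CR. On the main probe the CR pigs at 24 °C had 10.84, 11.11 and 11.24 as the lowest, median and highest value, the F1 pigs 10.64, 10.84 and 11.04, and the LW pigs 10.23, 10.40 and 10.65. At 30 °C the values were 10.77, 10.91 and 11.09 in CR, 10.04, 10.74 and 11.16 in F1, and 9.92, 10.91 and 11.27 in LW. At 24 °C the LW pigs lay under all CR pigs, and at 30 °C the breeds overlapped, with an SD of 0.49 in LW against 0.12 in CR. The lowest value, 9.92, was that of replicate 5 of LW 30 °C, followed by 10.04 in replicate 1 of F1 30 °C.

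Over both temperatures BAX was the only 1 of the 7 genes called for LW against CR, where 12.9% of all tested probes were called. A count of 1 in 7 is near that share, so it does not set these genes apart from the array. Its change was -0.40 (SE 0.12, 95% confidence interval -0.64 to -0.17, adjusted p = 0.018 with limma), or 0.757-fold. The probes of the coding site gave -0.50 (SE 0.18, adjusted p = 0.067) and -0.42 (SE 0.16, adjusted p = 0.079), in the same direction but past no threshold. LW minus CR was below 0 on all 5 slides, between -0.62 and -0.26 on the main probe. Without the CR and F1 pigs of closest breed position the change was -0.41 (adjusted p = 0.021 with limma).

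The breed difference was then taken at each temperature, a step added after the values were seen. At 24 °C it was -0.66 on the main probe (SE 0.15, 95% confidence interval -0.97 to -0.34, adjusted p = 0.013 with limma) and -0.99 and -0.86 on the coding probes (adjusted p = 0.0095 and 0.0076). BAX was the only 1 of the 7 genes called there, beside 3.46% of all tested probes. The LW pigs did not overlap the CR pigs on its main probe or on its coding probes, which read 1 site. How many of all tested probes keep these groups apart was not counted. At 30 °C the main probe gave -0.15 (SE 0.15, interval -0.46 to 0.16, adjusted p = 0.70 with limma), and the coding probes gave -0.01 and 0.03. There 0 of the 7 genes was called, against 3.67% of all tested probes.

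The heat change of BAX was also taken within each breed, beside its test between the breeds. The change from 24 to 30 °C was -0.15 in CR (SE 0.15, adjusted p = 1.00 with limma), -0.16 in F1 (SE 0.15, adjusted p = 0.76) and 0.36 in LW (SE 0.15, adjusted p = 1.00). The coding probes gave -0.28 and -0.27 in CR, -0.41 and -0.36 in F1 and 0.69 and 0.63 in LW. In LW, 4 of the 6 pigs at 30 °C were above every LW pig at 24 °C on the main probe, and replicate 5 was under all of them. The value in LW was 0.53 without that pig and 0.26 without replicate 1 of LW 30 °C, and the value in F1 was -0.03 without replicate 1 of F1 30 °C and -0.26 without replicate 4. In CR and F1, 6 of 6 and 5 of 6 pigs at 30 °C were below the median of their breed at 24 °C. The test of the difference between the breeds' changes gave an unadjusted p of 0.035 on the main probe and of 0.0023 and 0.0013 on the coding probes, and an adjusted p of 1.00 on all 3 (limma), so it did not pass.

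**Figure D3:**
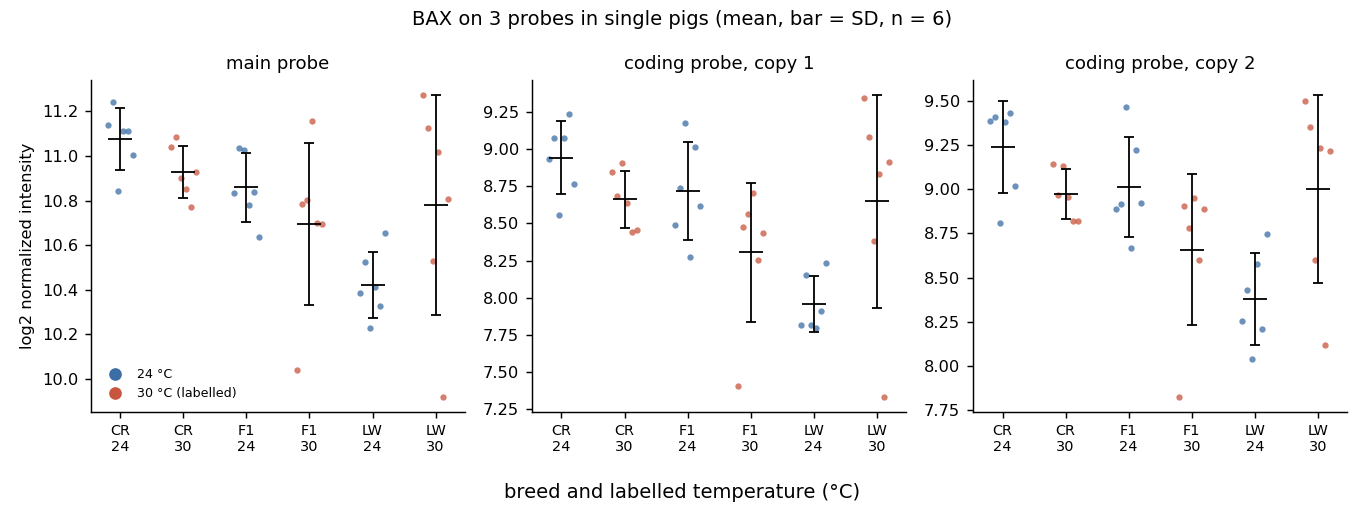
Log2 normalized intensity of BAX in single pigs on the main probe and on both probes with the same coding sequence, by breed and labelled temperature (black marks are means, bars are SD, n = 6). On each probe the LW pigs at 24 °C lie under the CR pigs at 24 °C, and the LW pigs at 30 °C spread from 9.92 to 11.27 on the main probe.

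Marker genes of other cell types were counted in the same comparison, beside the 12.9% of all tested probes called there. In LW against CR, 6 of 8 tested adipocyte markers were called, all lower, with a median change of -0.84. Their summed log2 level ran from 14.30 to 14.87 in LW and from 14.46 to 15.58 in CR at 24 °C, and from 14.16 to 15.10 and from 14.12 to 15.39 at 30 °C. Of the endothelial markers 4 of 9, and of the smooth muscle and pericyte markers 3 of 7, were called higher in LW, while 0 of 7 follicular cell markers was called. Of the remaining lists, skeletal muscle had 2 of 11 called higher. Myeloid cells had 1 of 8 and B and plasma cells 1 of 4 called lower. The fibroblast, C cell, parathyroid, T cell, erythroid and proliferation lists had 0, where the parathyroid list had only 1 tested gene. At 24 °C alone, 3.46% of all tested probes were called. There 3 of 8 adipocyte markers were called lower, 1 of 9 endothelial and 2 of 8 T cell markers higher, and 0 in the other lists. The T cell median was 0.42 at 24 °C and -0.06 at 30 °C, where 0 T cell markers were called. For heat over the breeds, 1 of 6 erythroid and 4 of 8 proliferation markers were called, all lower, and 0 in the other lists, beside 1.18% of all tested probes. The median heat change was -0.32 for adipocyte, -0.28 for fibroblast and -0.27 for proliferation markers. It was between -0.14 and 0.08 in the remaining lists, where 0.08 is the 1 parathyroid gene. With group means removed, the summed list levels gave r with BAX from -0.39 (fibroblasts) to 0.35 (proliferation), with 0.04 for adipocytes. With CDKN1A, r ran from -0.35 (C cells) to 0.22 (myeloid cells). The part of these markers in the results for BAX and CDKN1A was not tested. In whole glands, fewer cells of a type and less RNA per cell cannot be told apart.

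The differences between LW and CR were smaller for the other genes. For CDKN1A, LW minus CR was 0.21 on the main probe (SE 0.08, 95% confidence interval 0.05 to 0.37), which did not pass the test (limma, adjusted p = 0.081), and 0.24 on the overlapping second probe (SE 0.08), which did (adjusted p = 0.031). Over both temperatures the CR pigs had 9.61, 9.93 and 10.19 as the lowest, median and highest value on the main probe, the F1 pigs 9.38, 9.96 and 10.26, and the LW pigs 9.81, 10.12 and 10.63, so that all 3 breeds overlapped. MDM2 differed by -0.10 (SE 0.05, adjusted p = 0.18 with limma), GADD45A by 0.21 (SE 0.13, adjusted p = 0.32), and GADD45B, SESN1 and CCNG1 by between -0.02 and 0.02, with adjusted p between 0.90 and 0.94.

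For the F1 cross, 0 of the 7 genes was called against CR and 0 against LW, where 3.38% and 1.99% of all tested probes were called. At an unadjusted p under 0.05 there were 0 genes against CR and 2 against LW, beside 17.2% and 13.4% of all tested probes. Over both temperatures the CR pigs averaged 11.00 ± 0.14 for BAX (SD, n = 12), the F1 pigs 10.78 ± 0.28 and the LW pigs 10.60 ± 0.40. Averaged over both temperatures the cross stood at -0.23 from CR (SE 0.12, adjusted p = 0.32 with limma) and 0.18 from LW (SE 0.12, adjusted p = 0.57), and only CR and LW differed past the threshold. Its mean was between those of CR and LW at 24 °C (10.86 against 11.08 and 10.42) and below both at 30 °C (10.70 against 10.93 and 10.78). Without replicate 1 of F1 30 °C the value from LW was 0.25, and without replicate 5 of LW 30 °C it was 0.11. CCNG1 had its highest mean in F1, by 0.13 against CR (SE 0.07, adjusted p = 0.31) and 0.15 against LW (SE 0.07, adjusted p = 0.30), with 13.81 to 14.28 in F1, 13.66 to 14.03 in CR and 13.44 to 14.08 in LW.

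The wider p53 network was described from lists of its other genes, each by its main probe, and its counts for heat stand beside the 1.18% of all tested probes called. Among 14 tested regulators of p53, 1 was called for heat, the checkpoint kinase CHEK2, with 8.58 at 24 °C and 8.30 at 30 °C on average (change -0.27, SE 0.05, adjusted p = 0.00031 with limma). Among 19 further targets of arrest and repair, 1 was called, the replication clamp PCNA, at -0.34 (SE 0.06, adjusted p = 0.0010 with limma). Among 14 further targets of cell death and 17 of metabolism and secretion, 0 were called. The medians of these 4 lists lay between -0.04 and 0.01, near the median of 0.01 over all tested probes.

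The p53 pathway genes of cell division were measured in the same pigs, against the same share of 1.18%, and from this list, drawn up with earlier results of these data known, 9 of 12 were called for heat, all lower, with a median change of -0.49. The 4 largest were CDK1, the kinase that drives entry into mitosis, at -1.45 (SE 0.17), topoisomerase TOP2A at -1.40 (SE 0.19), the ribonucleotide reductase subunit RRM2 at -1.27 (SE 0.16) and cyclin CCNB1 at -1.18 (SE 0.15), each with an adjusted p of at most 1.17e-05 (limma). The smallest of the 12 changes was -0.10 and the largest change of the 7 targets was -0.21, so CDKN1A lay within the range of the cell division list and the other 6 targets lay above it. Within CR, F1 and LW alone, 8, 5 and 0 of these 12 genes were called, beside 0.387%, 0.383% and 0% of all tested probes. All 12 changes were below 0 in each breed. The 4 proliferation markers called above are CDK1, TOP2A and CCNB1 of this list and PCNA of the arrest and repair list, so they are not a separate result. Among 12 tested inputs of the GADD45 genes, 1 was called, BRCA1, at -0.38 (SE 0.06, adjusted p = 0.00022 with limma). Of 16 immediate early and glucocorticoid-responsive genes 6 were called, all lower, with a median of -0.25 over the list, and the 4 largest were FOS at -1.58, MT1A at -0.83, DUSP1 at -0.79 and EGR1 at -0.72 (adjusted p between 0.00016 and 0.0074 with limma).

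**Figure D4:**
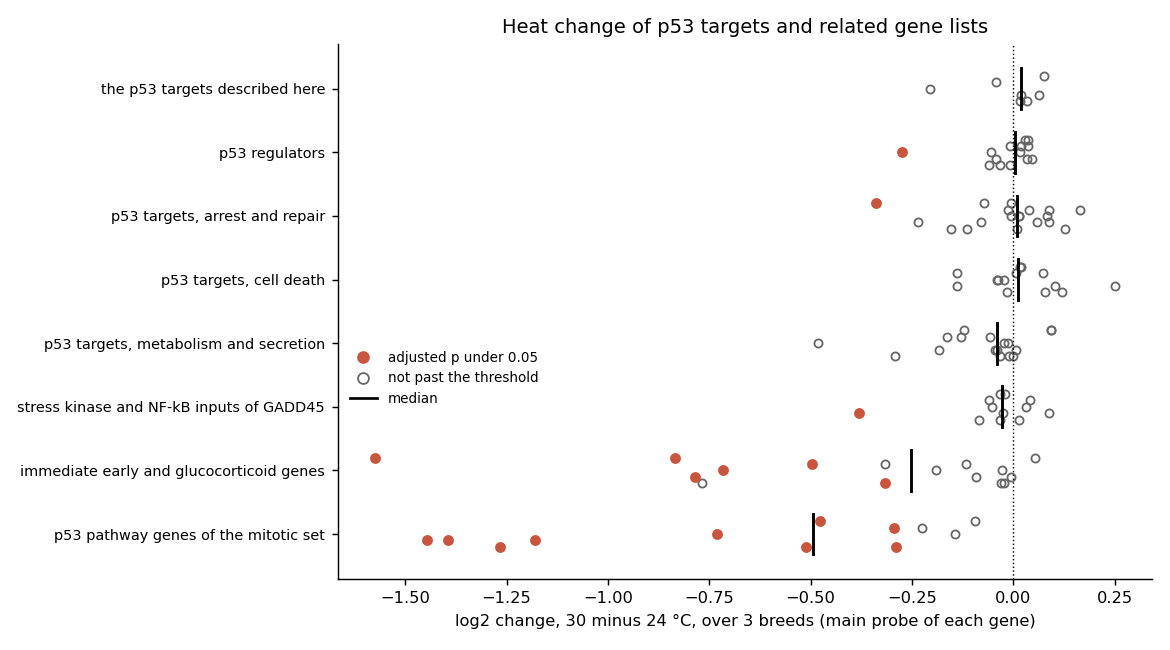
Log2 change from 24 to 30 °C over the 3 breeds for the main probe of each gene in 8 lists (filled circles have a limma adjusted p under 0.05, open circles do not, and black bars are list medians). The 7 p53 targets lie between -0.21 and 0.08 with none filled, and the cell division list has 9 of 12 filled with its median at -0.49.

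Whether the targets went up and down together from pig to pig was examined with the group means removed, for the 21 pairs of main probes over 36 pigs. Pearson's r lay between -0.28 and 0.31 with a median of 0.01, and 0 pairs passed a 2-sided permutation test (100000 permutations of pigs within groups, lowest adjusted p = 0.49), with 0 pairs at an unadjusted p under 0.05 for r. The highest r was CDKN1A with SESN1, at r = 0.31 and Spearman's rho = 0.29 (permutation p = 0.059 and adjusted p = 0.49), and the lowest r was BAX with SESN1, at r = -0.28 and rho = -0.24 (permutation p = 0.062 and adjusted p = 0.49). Without the 2 pigs farthest from the median on the first gene, these became r = 0.21 and r = -0.20. Within the 4 full slides, r lay between -0.41 and 0.61 for CDKN1A with SESN1, and between -0.53 and 0.56 for BAX with SESN1. By ranks, 1 pair was at an unadjusted p under 0.05, MDM2 with CDKN1A, at rho = 0.44 (permutation p = 0.014 and adjusted p = 0.29 over the 21 pairs) beside r = 0.23 (permutation p = 0.31). Its r was 0.52 without the 2 pigs farthest from the median of MDM2, and between -0.19 and 0.55 within the 4 full slides. On the same arrays the BAX main and coding probes, which lie at different sites, gave r = 0.90 and 0.88, and the dim CDKN1A probe gave 0.12 and 0.18 with the other probes of its gene.

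**Figure D5:**
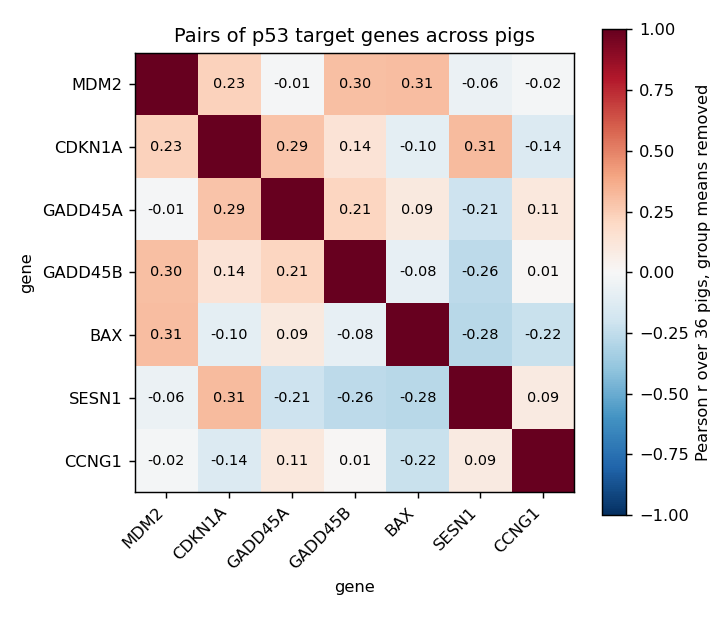
Pearson's r over 36 pigs between the main probes of 7 p53 target genes, after the mean of each breed and temperature group was removed. The 21 pairs lie between -0.28 and 0.31, and 0 pass the permutation test after adjustment.

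The named gene whose values were most like those of each target was looked up in the same group-centred values, over 9259 named genes without a missing value. These are descriptions over 36 pigs that share arrays and slides, without a test, since each is the highest of many. For CDKN1A it was RHOB, a small GTPase, at r = 0.76 (rho = 0.71, and between 0.29 and 0.91 within slides). For BAX it was SETD5, a SET domain protein, at r = 0.73 (rho = 0.69, and between 0.67 and 0.98 within slides). For GADD45B it was NAB2, a corepressor of EGR factors, at r = 0.69, but the values within slides ran from -0.25 to 0.94. The others were ANKRD39 for SESN1 at r = 0.68, CSNK2A2, a catalytic subunit of casein kinase 2, for CCNG1 at r = 0.65, the nuclear import receptor TNPO3 for MDM2 at r = 0.64 and FAM174B for GADD45A at r = 0.63. None of these 7 genes is among the targets described here.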

How the data were processed

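Total RNA of 36 thyroid glands was hybridised to 1-colour arrays, and the authors deposited the scanner output of each array (per the labels, Agilent Feature Extraction 10.10.1.1), whose median spot intensity is on a linear scale. The authors also deposited a log2 value table of 46097 probes, used as an alternative. The median log2 difference between that table and the values used here was 0.00555. From the scanner files, 1319 control spots per array were left out, 106 non-uniform spots were set to missing, 0 spots were saturated, and the intensities were quantile-normalized, put on the log2 scale and averaged per probe. Probes were kept if the scanner software called them well above background in 5 or more pigs of any 1 group of 6, which left 46222 of 60305. The number of arrays limits the precision. Heat and breed were fitted with limma 3.58.1 in R 4.3.3, with breed and temperature as terms over all 36 pigs. Changes within a breed or at 1 temperature, and the test between breeds, used the 6 group means. P-values were adjusted over all tested probes (Benjamini-Hochberg), with a threshold of 0.05, and confidence intervals are 95%. The brightest tested probe stands for a gene. The genes and lists were chosen with earlier results of these data known. The 9 targets are named whatever their values, from the other lists at most the 4 genes with the largest called heat change, and for each target the gene most like it. Cell type lists are given by counts, by median changes and, for adipocytes, by the log2 of the summed intensity. The range over the lists of the r between this summed level and BAX or CDKN1A is also given. The fits were tested on simulated data with known changes. P-values measure the spread between pigs, taken as independent. The paper describes blocks of littermates within each breed, which could not be taken into account, so the p-values for breed may be too small. Sequences of promoters and proteins were not used here.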

Additional observations from a re-analysis of the deposited data

Results flagged for a closer look

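In 3 of the 42 sets of 6 pigs (7 genes in 6 groups), 1 pig stood apart from its group on the main probe: its gap to the nearest pig, divided by the range of the group, was above Dixon's 95% critical value for 6 samples. Chance gives about 1 in 20 such sets. CDKN1A in replicate 2 of LW 24 °C was at 10.63, with the next pig at 10.23 and the lowest at 10.04 (ratio 0.685). GADD45B in replicate 1 of CR 30 °C was at 12.69, with the next pig at 12.15 and the lowest at 11.94 (ratio 0.717). SESN1 in replicate 4 of F1 30 °C was at 10.73, with the next pig at 11.03 and the highest at 11.20 (ratio 0.639). None of these pigs is one of the 2 pigs with the lowest BAX.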

How the results depend on the processing

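No count of called targets changed with another scaling, background correction, filter, block for slide or position on the slide, variance model or gene average, with the deposited table, or without any 1 pig, for heat, breed or their interaction, and the count of correlated pairs stayed at 0. When any tested probe of a gene could be called in place of its main probe, an alternative chosen after seeing the data, LW against CR counted 2 genes (BAX and CDKN1A) in place of 1. BAX in LW against CR stayed past the threshold in all alternatives, with adjusted p up to 0.048 in limma, and between -0.47 and -0.34 without any 1 pig. CDKN1A in heat stayed between -0.23 and -0.18 without any 1 pig, with adjusted p from 0.064 to 0.24. In LW against CR, GADD45B turned to 0.00266 with normexp and to 0.0582 with the mean of its probes, SESN1 to -0.0205 with processed signal, and CCNG1 to 0.000226 with slide as a fixed block. Without any 1 pig, the sign turned in heat for GADD45A (from -0.0905 to 0.00259), BAX (from -0.0255 to 0.0628) and CCNG1 (from -0.00462 to 0.0388), in LW against CR for GADD45B (from -0.0428 to 0.0345), SESN1 (from -0.0113 to 0.0599) and CCNG1 (from -0.0430 to 0.0157), and at 30 °C for BAX (from -0.249 to 0.0220 without replicate 5 of LW 30 °C); no target had passed the test there. Names taken through the reference gene table's accessions found 4 of the 7 genes. No paired analysis was possible because the labels carry no number that pairs pigs. Signal over background took 1 of the 15 probes out of the tests, and the tested CDKN1A probe with a mean log2 intensity of 5.84 was dim.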
